A study of Mus musculus with 23 samples.

Results

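The ABC transporters, proteins that bind ATP at a paired cassette and mostly move lipids, bile constituents and drugs across membranes, were followed in the RNA of mouse livers. Members were all genes of the count table whose symbol has the form *Abca* to *Abcg*, a number and at most 1 further letter, with a read in any mouse. Of 50 such symbols, 49 had a read, out of 20380 genes with a read and 27179 in the table, and *Abca12* had none. They comprised 15 genes of subfamily A, 10 of B, 10 of C, 4 of D, 1 of E, 3 of F and 6 of G. Of the 49 members, 38 had a mean of at least 1 CPM, counts scaled to a common library size by TMM. Pieces of liver without visible tumors came from 15 female mice. Every mouse carried Alb-Cre, which the albumin promoter drives in hepatocytes, and floxed *Trp53* on both alleles (Trp53flx/flx). The 6 Ctrl mice had wild type *Braf* and 1 floxed *Icmt* allele (Icmt flx/+), the 6 ABpIF/+ mice had the Braf CA/+ allele, which Cre turns into BrafV600E, with Icmt flx/+, and the 3 ABpIF/F mice had Braf CA/+ with Icmt flx/flx. *Icmt* encodes an enzyme that methylates the prenylated end of proteins such as RAS, and the study asked what its loss does to livers that express BrafV600E. The paper reports liver tumors in all ABpIF/F mice and in some ABpIF/+ mice. Being free of visible tumors thus describes the sampled tissue and not each whole liver. The ages of the mice are not in the labels. The paper reports that the ABpIF/F mice differed in age and that their tumor burden correlated with it. The labels do not say which age belongs to BG183, BG38 or BG90. Age and tumor burden therefore cannot be told apart from other differences among these mice. The part of age in the differences between groups was not tested. The sample labels write BRAF +/+ for both groups whose mice carry Braf CA/+ in the study's design, and the groups were used here as the design gives them.

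The 15 libraries held 24742910 to 32262649 counts. The strain label of 5 of the 6 Ctrl mice differed from that of the other 10 mice, so only 1 Ctrl mouse, BG3, shared the strain label of the Braf CA/+ mice, and for the other 5 the strain and the genotype cannot be told apart. A model with the strain label as a term therefore in effect compares the Braf CA/+ groups with BG3 alone. A call lost there cannot be told apart from a lack of Ctrl replicates. A clock score, the mean log2 CPM of 10 clock genes minus that of 4 clock genes of the opposite phase, was 0.995 in BG183, 0.197 in BG38 and -1.21 in BG90, the ABpIF/F mice. It was 0.00584 in the Ctrl mouse malpa387 and between 3.89 and 5.34 in the other 11 mice. The clock state and the ABpIF/F genotype thus moved together, and the scores of ABpIF/+ and ABpIF/F mice did not overlap. A model with the score as a covariate therefore cannot separate the clock state from this genotype. A call kept or lost there cannot be ascribed to either. The markers of hepatocytes (*Alb*, *Apob*, *Ttr* and others) were high in every mouse, and 0 of 6 were called in any comparison. Their sum, mostly *Alb*, was between 93530 and 124200 CPM in Ctrl and between 144100 and 202700 CPM in ABpIF/+. It was 198800, 110400 and 166300 CPM in BG183, BG38 and BG90. In ABpIF/+ vs Ctrl, *Alb* (log2 fold change 0.79) and *Hnf4a* (0.51) were higher and *Ttr* (-0.81) was lower, with adjusted p below 0.01 (edgeR) but under 2-fold. In such bulk RNA, fewer cells of a type and less RNA per cell cannot be told apart.

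Hepatocytes are polarized cells whose apical membranes enclose the bile canaliculi. ABC proteins of subfamilies B, C and G in that membrane pump bile salts, phospholipid, sterols and conjugated bilirubin into bile, and other members of subfamily C face the blood. Subfamily A proteins and *Abcg1* move cellular cholesterol and phospholipid, subfamily D proteins import fatty acyl-CoA into peroxisomes, and the E and F proteins lack membrane spans and act at the ribosome. Nuclear receptors for bile acids (FXR, encoded by *Nr1h4*), oxysterols (LXR), xenobiotics (CAR and PXR) and fatty acids (PPAR alpha) are known to act on many of these genes in liver.

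Upstream sequences are shown for the canalicular genes called in ABpIF/+ vs Ctrl, *Abcb11* and *Abcb4*, and for *Abcg5* and *Abcg8*, whose starts face away from each other. The sequences are from RefSeq on GRCm38.p6, which held an entry for 38 of the 50 symbols, and each is written 5′ to 3′ on the strand of the gene (on the plus strand, that of *Abcg8*, for the last). The first covers chr2:69342617-69342866 on the minus strand, the 250 bases before the start of *Abcb11*. Capitals mark a run that differs in 1 base (T4C, counted from 1 at the 5′ end of the motif) from the inverted repeat AGGTCANTGACCT, the textbook binding site of FXR, and that begins 63 bases before the start. The exact repeat was present on either strand in 2 of 32851 promoter windows of this length (0.00609%), and with at most 1 changed base in 26 (0.0791%).
Abcb11: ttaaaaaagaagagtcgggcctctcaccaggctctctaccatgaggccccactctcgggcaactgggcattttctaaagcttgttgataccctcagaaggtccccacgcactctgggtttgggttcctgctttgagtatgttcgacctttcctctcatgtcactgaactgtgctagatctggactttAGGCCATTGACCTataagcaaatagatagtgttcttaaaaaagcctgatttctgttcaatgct
The second covers chr5:8893471-8893720 on the plus strand, before the start of *Abcb4*, and capitals mark a CCAAT box, the letters CCAAT on the reverse strand, which 33.8% of all promoter windows hold on either strand.
Abcb4: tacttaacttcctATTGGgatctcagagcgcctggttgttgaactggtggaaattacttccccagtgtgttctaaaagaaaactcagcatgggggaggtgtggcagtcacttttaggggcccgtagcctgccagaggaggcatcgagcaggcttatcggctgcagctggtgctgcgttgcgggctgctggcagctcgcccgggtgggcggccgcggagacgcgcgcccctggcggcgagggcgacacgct
The third is the whole interval of 109 bases between the starts of *Abcg5* (minus strand) and *Abcg8* (plus strand), chr17:84683012-84683120. Capitals mark a TATA box (TATAAA) on the reverse strand, a motif that 12.4% of all windows hold.
Abcg5 and Abcg8: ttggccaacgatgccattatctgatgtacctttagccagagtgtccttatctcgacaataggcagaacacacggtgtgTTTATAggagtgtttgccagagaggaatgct
These matches describe letters only. No member promoter held the exact FXR repeat, the PPAR direct repeat AGGTCANAGGTCA (0.0335% of all windows) or the LXR direct repeat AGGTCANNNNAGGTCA (0.0152%) in this window.

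Per length of exons, *Abcb11*, the bile salt export pump, had the highest level of all members in Ctrl livers, with a mean of 152 CPM per kilobase. It was followed by *Abcd3*, a peroxisomal importer of fatty acyl-CoA and bile acid precursors, with 105 CPM per kilobase. *Abcc3*, *Abcc2*, *Abcg5*, *Abcc6*, *Abca6* and *Abcg8* came next, from 53.4 down to 37.3 CPM per kilobase. In ABpIF/+ livers *Abcb11* was at 21.6 and *Abcd3* at 27.7 CPM per kilobase, and *Abcc3*, at 74.9, had the highest level. In ABpIF/F livers the means of *Abcc3* (65.3) and *Abcb11* (65.2) were nearly equal, while *Abcd3* was at 24.3 CPM per kilobase.

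**Figure D1:**
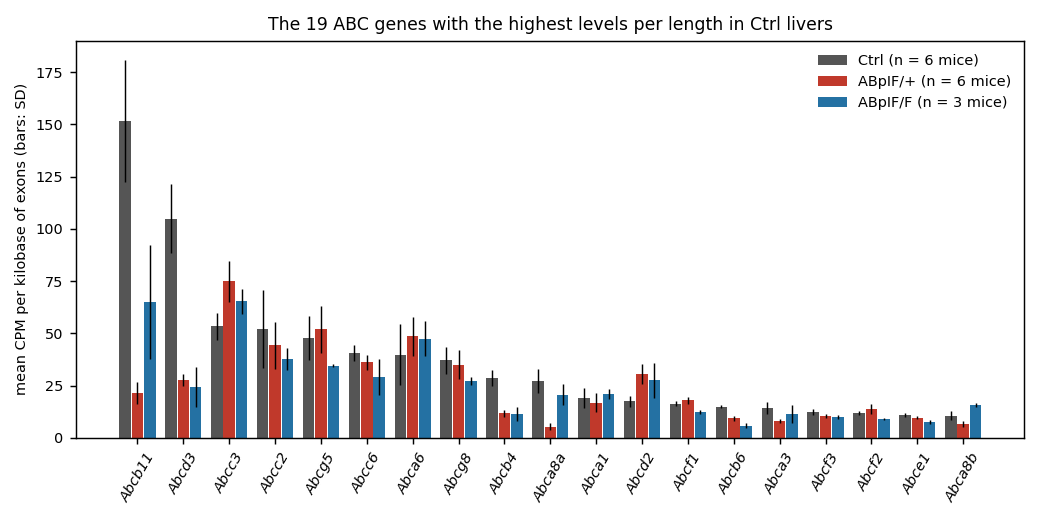
Mean CPM per kilobase of exons of the 19 ABC genes with the highest level in Ctrl, in Ctrl (grey, n = 6 mice), ABpIF/+ (red, n = 6) and ABpIF/F (blue, n = 3) livers, with bars for the SD over mice. The Ctrl bars of *Abcb11* (152) and *Abcd3* (105) stand above all others, and both genes are lower in the other groups.

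A gene counted as called where its adjusted p was below 0.01 (edgeR, Benjamini-Hochberg over all 27179 genes) and it differed at least 2-fold, that is, by 1 or more on the log2 scale. In ABpIF/+ vs Ctrl, 11 of the 49 members were called (22.4%), beside 10.0% of all genes tested. Of these, 4 rose (all genes, 4.69%) and 7 fell (all genes, 5.35%). In ABpIF/F vs Ctrl, 8 members were called (16.3%; all genes, 6.93%), of which 3 rose (all genes, 4.55%) and 5 fell (all genes, 2.38%). ABpIF/+ vs ABpIF/F livers differed in 6 members (12.2%; all genes, 7.24%), all lower in ABpIF/+ (all genes, 5.49%). With no limit on the fold, an adjusted p below 0.01 was reached by 8 higher (all genes, 9.25%) and 14 lower members (all genes, 9.16%) in ABpIF/+ vs Ctrl, by 3 (6.16%) and 8 (4.78%) in ABpIF/F vs Ctrl and by 3 (4.20%) and 9 (6.75%) in ABpIF/+ vs ABpIF/F. Many genes of the table have few reads. Among genes with at least 1 CPM, the shares called were 23.7%, 18.4% and 13.2% of 38 members and 17.6%, 12.6% and 12.2% of 12316 genes, in the same order of comparisons. The median log2 fold change of those 38 members was -0.17 in ABpIF/+ vs Ctrl, -0.31 in ABpIF/F vs Ctrl and 0.16 in ABpIF/+ vs ABpIF/F, and that of the 12316 genes was 0.02, -0.0008 and 0.04. The comparisons share mice, so their calls are not independent. *Abcb11* was the only member called in all 3 comparisons, 17 members were called in at least 1, and 32 in none.

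**Figure D2:**
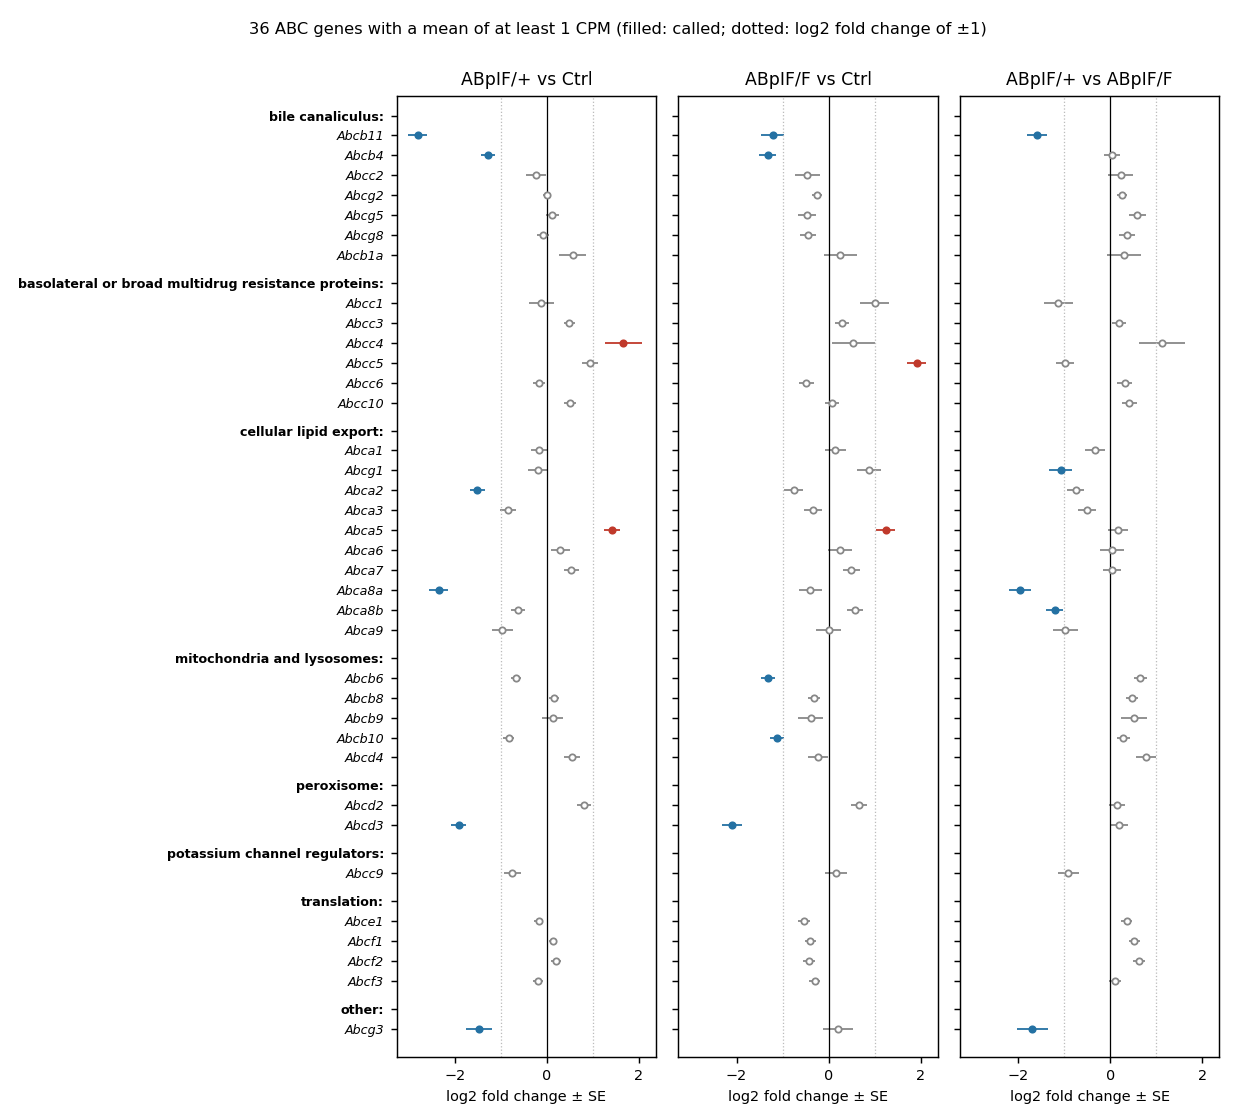
Log2 fold change ± SE from the edgeR fit of 36 of the 38 members with at least 1 CPM, grouped by role, in ABpIF/+ vs Ctrl (left), ABpIF/F vs Ctrl (middle) and ABpIF/+ vs ABpIF/F (right). Filled points are called genes, red for higher and blue for lower in the group named first, and dotted lines mark a log2 fold change of 1 in either direction. *Abcb11* is lowest in the left panel (-2.81) and *Abcd3* in the middle panel (-2.11).

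Of the 8 members of the bile canaliculus, 2 fell in ABpIF/+ vs Ctrl, *Abcb11* and *Abcb4* (all genes, 5.35%). The same 2 fell in ABpIF/F vs Ctrl (all genes, 2.38%). *Abcb11* (Entrez 27413, chr2:69238282-69342616, minus strand), whose product drives the flow of bile salts, was between 589 and 1028 CPM in Ctrl livers, with a median of 783. In ABpIF/+ livers it was between 81.1 and 159 CPM, with a median of 110.0. In ABpIF/F livers it was 487 CPM in BG183, 209 in BG38 and 311 in BG90. The 3 groups did not overlap, and ABpIF/F lay between the other two. The log2 fold change was -2.81 ± 0.20 (SE, adjusted p = 6.83e-10, edgeR) in ABpIF/+ vs Ctrl, -1.22 ± 0.24 (adjusted p = 0.000934) in ABpIF/F vs Ctrl and -1.59 ± 0.22 (adjusted p = 3.49e-05) in ABpIF/+ vs ABpIF/F. The ABpIF/F vs Ctrl call was lost without BG38 (log2 fold change -0.97) and with the clock score as a covariate (-1.39, adjusted p = 0.013). It was also lost with the strain label in the model (-1.004), which in effect leaves BG3 as the only Ctrl mouse compared. The clock score also ended the call in ABpIF/+ vs ABpIF/F (-1.39, adjusted p = 0.0316).

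*Abcb4* (Entrez 18670, chr5:8893717-8959231, plus strand) encodes the flippase that adds phosphatidylcholine to bile. Its level was between 212 and 319 CPM in Ctrl (median 267) and between 90.8 and 133 CPM in ABpIF/+ livers (median 110.5). It was 139, 106 and 77.7 CPM in BG183, BG38 and BG90. Both groups with BrafV600E lay below all Ctrl mice and overlapped each other. It had a log2 fold change of -1.29 ± 0.14 (adjusted p = 3.73e-07, edgeR) in ABpIF/+ vs Ctrl and -1.33 ± 0.18 (adjusted p = 1.65e-05) in ABpIF/F vs Ctrl, while ABpIF/+ and ABpIF/F differed by 0.04 ± 0.17. Thus *Abcb11* was higher in ABpIF/F than in ABpIF/+ livers and *Abcb4*, on the same membrane, was not called between these groups.

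The other canalicular members were not called in any comparison. *Abcc2* (Entrez 12780), the exporter of conjugated bilirubin, was between 225 and 656 CPM in Ctrl, between 255 and 511 CPM in ABpIF/+ and at 329, 364 and 275 CPM in BG183, BG38 and BG90, and the groups overlapped. Another entry of the table, *Gm10768*, carries the same Ensembl gene as *Abcc2* and had a median of 4397 counts in Ctrl, 5062.5 in ABpIF/+ and 3540 in ABpIF/F mice, so the level of *Abcc2* is uncertain. *Abcg2*, which exports urate and many drugs, was the steadiest member, between 27.1 and 30.2 CPM in Ctrl, between 27.3 and 30.1 CPM in ABpIF/+ and at 24.7, 25.8 and 21.5 CPM in the ABpIF/F mice. Its log2 fold change was 0.01 ± 0.09 in ABpIF/+ vs Ctrl and -0.24 ± 0.11 in ABpIF/F vs Ctrl.

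*Abcg5* and *Abcg8*, which act as a pair that exports cholesterol and plant sterols, had log2 fold changes of 0.12 ± 0.15 and -0.09 ± 0.14 in ABpIF/+ vs Ctrl. In ABpIF/F vs Ctrl they were -0.47 ± 0.19 and -0.45 ± 0.17, with adjusted p of 0.0971 and 0.0848 (edgeR). *Abcg5* was between 99.6 and 169 CPM in Ctrl, between 105 and 186 CPM in ABpIF/+ and at 95.7, 92.5 and 92.4 CPM in the ABpIF/F mice. *Abcg8* was between 110.3 and 171 CPM in Ctrl, between 102 and 163 CPM in ABpIF/+ and at 111, 98.9 and 97.4 CPM in ABpIF/F. Of their exon bases, 82 overlap on opposite strands, which the deposited counts cannot separate if strand was not used in counting. *Abcb1a*, a P-glycoprotein that exports drugs, was between 13.5 and 26.8 CPM in Ctrl, between 16.2 and 39.5 CPM in ABpIF/+ and at 25.2, 33.5 and 11.2 CPM in ABpIF/F. Its close copy *Abcb1b* was between 0.307 and 1.21 CPM in every mouse. Their transcripts share 9.03% of the 100-base words of *Abcb1a*, so reads could be split between them.

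**Figure D3:**
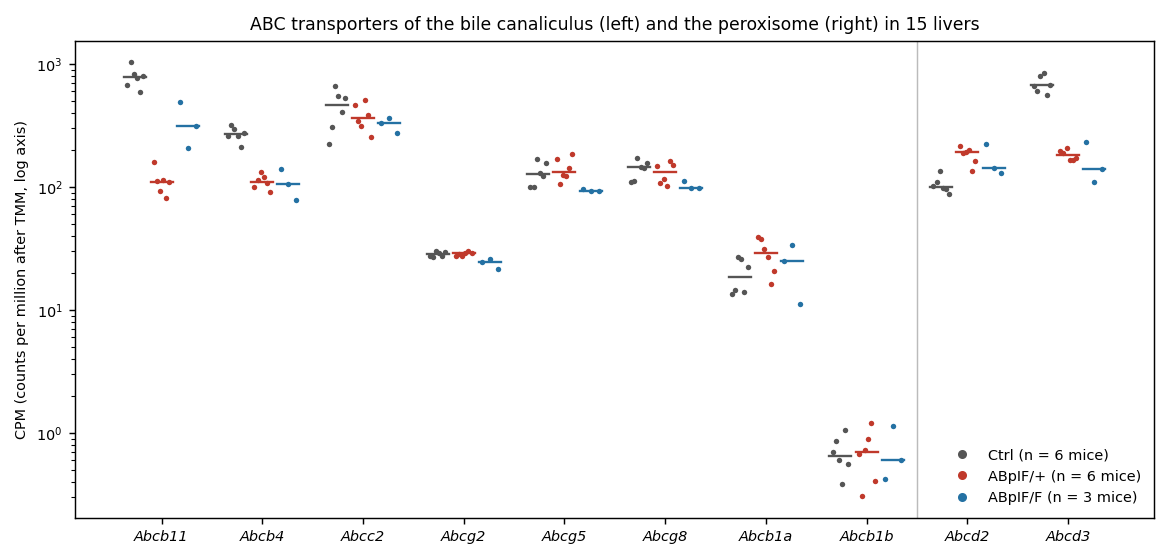
CPM on a log axis of the 8 members of the bile canaliculus (left of the line) and 2 of the peroxisome (right), with 1 point per mouse and a line at the median of Ctrl (grey, n = 6), ABpIF/+ (red, n = 6) and ABpIF/F (blue, n = 3). The points of *Abcb11*, *Abcb4* and *Abcd3* in both groups with BrafV600E lie below all Ctrl points, and those of *Abcc2*, *Abcg8* and *Abcb1b* overlap.

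The 12 partners of the canalicular transporters that were examined included the lipid flippase *Atp8b1* and membrane scaffold proteins. Of the 12, 1 was lower in ABpIF/+ vs Ctrl (all genes, 5.35%). None was called in ABpIF/F vs Ctrl (all genes, 6.93%). In ABpIF/+ vs ABpIF/F, 1 was higher (all genes, 1.76%). The first was *Pdzk1*, a scaffold of membrane transporters, with a mean of 93.2 CPM in Ctrl, 38.0 CPM in ABpIF/+ and 51.3 CPM in ABpIF/F and a log2 fold change of -1.29 ± 0.15 in ABpIF/+ vs Ctrl. The other was *Slc47a1*, which exports organic cations, at means of 150.4 CPM in ABpIF/+ and 71.3 CPM in ABpIF/F. Without the limit on the fold, 3 and 4 of the 12 partners were lower in ABpIF/+ and ABpIF/F vs Ctrl, beside 9.16% and 4.78% of all genes.

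Of 12 nuclear receptors and other factors known to act on ABC genes, 1 fell in ABpIF/+ vs Ctrl (all genes, 5.35%) and 2 fell in ABpIF/F vs Ctrl (all genes, 2.38%). In ABpIF/+ vs ABpIF/F, 2 were higher, *Ppara* and *Nr1i3* (all genes, 1.76%). *Nr0b2*, a repressor that FXR induces, had means of 27.3 CPM in Ctrl, 12.7 CPM in ABpIF/+ and 26.2 CPM in ABpIF/F livers (log2 fold change of ABpIF/+ vs Ctrl, -1.11 ± 0.24). *Nr1h4* itself was between 111 and 135 CPM in Ctrl, between 91.2 and 149.7 CPM in ABpIF/+ and at 109.9, 50.6 and 59.0 CPM in BG183, BG38 and BG90. Its log2 fold change in ABpIF/F vs Ctrl was -0.78 ± 0.20 (adjusted p = 0.00649, edgeR), under 2-fold. In ABpIF/F vs Ctrl the log2 fold change of *Ppara* was -1.66 ± 0.28 (adjusted p = 0.000209, edgeR). That of *Nr1i3*, which encodes CAR, was -1.64 ± 0.25 (adjusted p = 6.53e-05, edgeR). Within Ctrl, *Ppara* was lowest in malpa387 (173 CPM), the Ctrl mouse with a low clock score, and *Nr1i3* in BG3 (102 CPM). These factors were not refitted with the clock score as a covariate.

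In the peroxisome, *Abcd3* fell in ABpIF/+ vs Ctrl and in ABpIF/F vs Ctrl, and *Abcd2* was not called in either. *Abcd3* (Entrez 19299, chr3:121758774-121815302, minus strand) was between 560 and 843 CPM in Ctrl (median 672) and between 164.5 and 206 CPM in ABpIF/+ livers (median 181). It was 231, 109.5 and 141 CPM in BG183, BG38 and BG90. Every mouse with BrafV600E was below every Ctrl mouse. Its log2 fold change came to -1.92 ± 0.16 (adjusted p = 7.61e-09, edgeR) in ABpIF/+ vs Ctrl and -2.11 ± 0.21 (adjusted p = 2.89e-07) in ABpIF/F vs Ctrl, with 0.19 ± 0.19 between ABpIF/+ and ABpIF/F.

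*Abcd2*, a peroxisomal importer of very long chain and polyunsaturated fatty acyl-CoA, was between 87.6 and 134 CPM in Ctrl, between 136 and 213 CPM in ABpIF/+ and at 222, 141 and 130.5 CPM in ABpIF/F. Its log2 fold change was 0.80 ± 0.15 (adjusted p = 0.000199) in ABpIF/+ vs Ctrl, short of 2-fold, and 0.66 ± 0.17 (adjusted p = 0.0101) in ABpIF/F vs Ctrl. Per kilobase, the mean of *Abcd2* was below that of *Abcd3* in Ctrl (17.6 and 105 CPM per kilobase), and the means were close in ABpIF/+ (30.6 and 27.7) and ABpIF/F livers (27.7 and 24.3).

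Of 15 other genes of peroxisomal beta-oxidation and import, 7 fell in ABpIF/+ vs Ctrl (all genes, 5.35%). In ABpIF/F vs Ctrl, 7 fell (all genes, 2.38%). None rose in either (all genes, 4.69% and 4.55%). The median log2 fold change of the 15 was -1.003 and -1.03, beside 0.02 and -0.0008 for all genes with at least 1 CPM. *Acaa1b*, a thiolase of the pathway, had means of 956 CPM in Ctrl, 97.8 CPM in ABpIF/+ and 67.3 CPM in ABpIF/F livers. *Ehhadh*, which carries the steps before the thiolase, had means of 416, 108 and 101 CPM. *Crot*, which forms carnitine esters of shortened acyl chains for export, was at 514 CPM in Ctrl, 65.1 CPM in ABpIF/+ and 338 CPM in ABpIF/F, and was the only gene of the 15 called between ABpIF/+ and ABpIF/F (log2 fold change -2.38 ± 0.32).

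Of 7 multidrug resistance proteins of the blood-facing or other membranes, 1 rose in ABpIF/+ vs Ctrl (all genes, 4.69%). In ABpIF/F vs Ctrl, 2 rose (all genes, 4.55%). *Abcc4* (Entrez 239273, chr14:118482692-118706219, minus strand) exports bile acids with glutathione, cyclic nucleotides and drugs. It was between 4.32 and 11.1 CPM in Ctrl (median 5.43), between 13.1 and 34.4 CPM in ABpIF/+ (median 18.4) and at 3.92, 18.9 and 5.32 CPM in BG183, BG38 and BG90. All ABpIF/+ mice were above all Ctrl mice, and among the ABpIF/F mice only BG38 was. In ABpIF/+ vs Ctrl its log2 fold change was 1.66 ± 0.40 (adjusted p = 0.00603, edgeR), and the call was lost in 11 of 23 alternative settings that could end it. Among them was the strain label in the model (2.19), where the comparison in effect rests on BG3 alone.

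*Abcc5* (Entrez 27416, chr16:20331303-20426394, minus strand), an exporter of cyclic nucleotides, was between 5.22 and 7.33 CPM in Ctrl (median 6.33) and between 9.85 and 13.9 CPM in ABpIF/+ (median 12.2). It was 12.8, 34.9 and 22.3 CPM in BG183, BG38 and BG90. All mice with BrafV600E were above all Ctrl mice. In log2 terms it differed by 1.91 ± 0.20 (SE, adjusted p = 5.87e-07, edgeR) in ABpIF/F vs Ctrl, 1.50 without BG38, and 0.93 ± 0.18 (adjusted p = 0.00031) in ABpIF/+ vs Ctrl. *Abcc12*, a member of little known substrate, was between 0.112 and 0.591 CPM in Ctrl, between 0.282 and 0.831 CPM in ABpIF/+ and at 1.76, 5.84 and 0.714 CPM in BG183, BG38 and BG90. Its log2 fold change was 3.13 ± 0.55 (adjusted p = 0.000281) in ABpIF/F vs Ctrl and -2.46 ± 0.54 (adjusted p = 0.00236) in ABpIF/+ vs ABpIF/F. Without BG38 the values were 1.97 (adjusted p = 0.0277) and -1.29 (adjusted p = 0.17), and neither was called. With the strain label in the model, where BG3 is in effect the only Ctrl mouse compared, the ABpIF/F vs Ctrl call was also lost (4.05).

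*Abcc3*, which carries conjugated bile acids and drugs to the blood, was between 249 and 347 CPM in Ctrl, between 360.5 and 503 CPM in ABpIF/+ and at 358, 410.1 and 348.5 CPM in the ABpIF/F mice. Its log2 fold change was 0.49 ± 0.12 (adjusted p = 0.00457, edgeR) in ABpIF/+ vs Ctrl, which is under 2-fold, and 0.29 ± 0.15 in ABpIF/F vs Ctrl. *Abcc6*, whose loss leads to ectopic mineral in connective tissue, was between 207 and 260.0 CPM in Ctrl, between 171 and 231 CPM in ABpIF/+ and at 220.5, 123 and 154 CPM in ABpIF/F. It was not called in any comparison. *Abcc1* was at 1.53, 7.09 and 4.57 CPM in BG183, BG38 and BG90 and between 1.25 and 2.58 CPM in all other mice, and *Abcc10* was not called either.

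Subfamily A, which moves lipids within and out of cells, is the largest subfamily, with 15 members. In ABpIF/+ vs Ctrl, 3 of the 15 were higher (*Abca5*, *Abca14* and *Abca17*; all genes, 4.69%). Lower were 2 (*Abca2* and *Abca8a*; all genes, 5.35%). A cluster of 5 genes on chromosome 11 (*Abca8b*, *Abca8a*, *Abca9*, *Abca6* and *Abca5*, in that order) changed unevenly. *Abca8a* (Entrez 217258, chr11:110025634-110095978, minus strand) was between 119.5 and 212 CPM in Ctrl (median 186), between 21.6 and 51.8 CPM in ABpIF/+ (median 34.2) and at 165, 109 and 118 CPM in BG183, BG38 and BG90. Its product takes part in cholesterol efflux. The log2 fold change was -2.36 ± 0.21 (adjusted p = 5.04e-08, edgeR) in ABpIF/+ vs Ctrl and -1.96 ± 0.23 (adjusted p = 1.27e-05) in ABpIF/+ vs ABpIF/F, while ABpIF/F vs Ctrl gave -0.40 ± 0.24 (adjusted p = 0.343). It was the only member still called between ABpIF/+ and ABpIF/F with the clock score as a covariate (-2.61, adjusted p = 0.000901, edgeR). The score did not overlap between these groups, so this fit cannot separate clock state from genotype.

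*Abca8b*, next to it, was between 53.3 and 97.8 CPM in Ctrl, between 35.7 and 66.7 CPM in ABpIF/+ and at 125, 114 and 112 CPM in the ABpIF/F mice. All ABpIF/F mice were above every other mouse. ABpIF/+ and ABpIF/F differed by a log2 fold change of -1.21 ± 0.18 (adjusted p = 5.23e-05, edgeR), and neither group was called against Ctrl (-0.64 ± 0.15 and 0.57 ± 0.18). *Abca9* had a log2 fold change of -0.98 ± 0.23 in ABpIF/+ vs Ctrl and *Abca6* one of 0.28 ± 0.21, and neither was called. At the other end of the cluster, *Abca5* (Entrez 217265, chr11:110269369-110337716, minus strand), a lipid transporter of endosomes and lysosomes, was between 3.73 and 6.96 CPM in Ctrl (median 6.55) and between 13.0 and 17.8 CPM in ABpIF/+ (median 16.6). It was 9.43, 20.8 and 11.6 CPM in BG183, BG38 and BG90. The log2 fold change was 1.42 ± 0.18 (adjusted p = 2.5e-06) in ABpIF/+ vs Ctrl and 1.24 ± 0.21 (adjusted p = 0.000167) in ABpIF/F vs Ctrl, and without BG38 the latter was 0.83, short of 2-fold.

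*Abca2* (Entrez 11305, chr2:25428703-25448540, plus strand), a lipid transporter of endosomes and lysosomes, was between 55.7 and 77.9 CPM in Ctrl (median 66.7), between 15.6 and 32.5 CPM in ABpIF/+ (median 22.6) and at 42.6, 35.7 and 39.8 CPM in ABpIF/F. The 3 groups did not overlap. Its log2 fold change was -1.51 ± 0.16 (adjusted p = 2.58e-07, edgeR) in ABpIF/+ vs Ctrl and -0.76 ± 0.20 (adjusted p = 0.00912) in ABpIF/F vs Ctrl, under 2-fold. *Abca3*, known for the phospholipid of lung surfactant, was at -0.85 ± 0.16 (adjusted p = 0.000367) in ABpIF/+ vs Ctrl, also under 2-fold, and 9.75% of its exon bases lie under another gene on the opposite strand.

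*Abca14* and *Abca17* had few reads. *Abca17* had at most 3 counts in each Ctrl library, and its mean in ABpIF/+ livers was at least 4.88-fold higher than 3 counts in each Ctrl library allow. It was between 0.128 and 0.927 CPM in ABpIF/+ and at 0.196, 0.0831 and 0 CPM in ABpIF/F. *Abca14* was between 0.082 and 0.522 CPM in Ctrl and between 0.34 and 1.09 CPM in ABpIF/+, and its call (log2 fold change 1.66 ± 0.44, adjusted p = 0.00637, edgeR) was lost in 10 of the 23 alternative settings that could end it. Both calls were lost with the strain label in the model, where BG3 is in effect the only Ctrl mouse compared. Of the 11 members with a mean under 1 CPM, *Abca13*, *Abca15*, *Abca16*, *Abcb5*, *Abcc8* and *Abcg4* never had more than 4 counts in a mouse, and none of them was called.

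*Abca1*, which loads apolipoprotein A1 with cholesterol and phospholipid, was between 126 and 241 CPM in Ctrl, between 137 and 267 CPM in ABpIF/+ and at 213, 198 and 247 CPM in ABpIF/F. The groups overlapped and its log2 fold changes were -0.18 ± 0.18 and 0.15 ± 0.22 against Ctrl, with adjusted p of 0.608 and 0.886 (edgeR). *Abcg1*, which passes cholesterol to high density lipoprotein and is well known from macrophages, was between 7.63 and 12.7 CPM in Ctrl, between 4.27 and 11.6 CPM in ABpIF/+ and at 10.5, 24.3 and 16.2 CPM in BG183, BG38 and BG90. It was lower in ABpIF/+ vs ABpIF/F (-1.08 ± 0.26, adjusted p = 0.0053), and this call was lost without BG38 (-0.73, adjusted p = 0.0872) and in 6 other settings.

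Among 8 partners of these 2 transporters in high density lipoprotein, *Apoa1* rose in both comparisons with Ctrl, with means of 5788 CPM in Ctrl, 26830 CPM in ABpIF/+ and 18410 CPM in ABpIF/F. *Lipg* and *Pltp*, a lipase and a phospholipid transfer protein that remodel the particle, fell in both. *Lipg* had means of 26.3, 1.20 and 1.68 CPM and *Pltp* of 62.7, 8.56 and 15.7 CPM in Ctrl, ABpIF/+ and ABpIF/F. In all, 1 of the 8 rose (all genes, 4.69%) and 3 fell (all genes, 5.35%) in ABpIF/+ vs Ctrl. In ABpIF/F vs Ctrl, 2 rose (all genes, 4.55%) and 4 fell (all genes, 2.38%). Of 9 known LXR targets that are not ABC genes, 5 fell in ABpIF/+ vs Ctrl (all genes, 5.35%). In ABpIF/F vs Ctrl, 4 fell (all genes, 2.38%). *Cyp7a1*, the rate-limiting enzyme of bile acid synthesis, fell in both. Its means were 294 CPM in Ctrl, 47.6 CPM in ABpIF/+ and 8.62 CPM in ABpIF/F. The log2 fold changes against Ctrl were -2.63 ± 0.57 and -5.09 ± 0.87. Within Ctrl it ranged from 99.3 CPM in malpa387, the Ctrl mouse with a low clock score, to 561 CPM. Genes outside the family were not refitted with the clock score as a covariate. Among members that are also known LXR targets, *Abca1*, *Abcg5* and *Abcg8* were not called in any comparison, and *Abcg1* was called only in ABpIF/+ vs ABpIF/F, as given above.

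Of the 6 members in mitochondria and lysosomes, *Abcb6* and *Abcb10* fell in ABpIF/F vs Ctrl (all genes, 2.38%). None was called in ABpIF/+ vs Ctrl (all genes, 10.0%). *Abcb6* (Entrez 74104, chr1:75171717-75180392, minus strand), a porphyrin transporter, was between 75.6 and 85.6 CPM in Ctrl, between 43.4 and 60.6 CPM in ABpIF/+ and at 38.1, 24.0 and 32.9 CPM in BG183, BG38 and BG90. The 3 groups did not overlap, in the order Ctrl, ABpIF/+, ABpIF/F. Its log2 fold change was -1.32 ± 0.15 (adjusted p = 1.12e-06, edgeR) in ABpIF/F vs Ctrl, -0.67 ± 0.11 (adjusted p = 8.88e-05) in ABpIF/+ vs Ctrl and 0.66 ± 0.14 (adjusted p = 0.00228) in ABpIF/+ vs ABpIF/F, the last 2 under 2-fold. *Abcb10* (Entrez 56199, chr8:123952459-123983122, minus strand), an inner membrane protein needed for haem synthesis, was between 22.1 and 36.2 CPM in Ctrl, between 15.6 and 20.2 CPM in ABpIF/+ and at 17.1, 12.2 and 13.9 CPM in ABpIF/F. Its log2 fold change was -1.12 ± 0.15 (adjusted p = 1.43e-05) in ABpIF/F vs Ctrl and -0.84 ± 0.12 (adjusted p = 1.14e-05) in ABpIF/+ vs Ctrl. With the clock score as a covariate the former was -0.65 (adjusted p = 0.0417). *Abcb8*, *Abcb9* and *Abcd4*, of which the last works in lysosomal cobalamin release, were not called.

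The 4 ABC proteins of translation were not called in any comparison. *Abce1*, which splits ribosomes for reuse, had a log2 fold change of -0.18 ± 0.10 in ABpIF/+ vs Ctrl and -0.54 ± 0.12 (adjusted p = 0.00339, edgeR) in ABpIF/F vs Ctrl. Those of *Abcf1*, *Abcf2* and *Abcf3* were between -0.20 and 0.20 in ABpIF/+ vs Ctrl and between -0.43 and -0.30 in ABpIF/F vs Ctrl. *Abcc9*, a potassium channel regulator of contractile and mesenchymal cells, was between 19.2 and 28.1 CPM in Ctrl, between 9.92 and 16.8 CPM in ABpIF/+ and at 16.0, 39.6 and 20.5 CPM in BG183, BG38 and BG90. Its log2 fold change was -0.75 ± 0.19 (adjusted p = 0.0062) in ABpIF/+ vs Ctrl. *Abcg3*, a rodent relative of *Abcg2*, was between 2.75 and 4.60 CPM in Ctrl, between 0.619 and 1.74 CPM in ABpIF/+ and at 2.12, 7.17 and 3.18 CPM in ABpIF/F. It fell in ABpIF/+ vs Ctrl (-1.49 ± 0.29, adjusted p = 0.000349) and in ABpIF/+ vs ABpIF/F (-1.69 ± 0.33, adjusted p = 0.000806), and the latter was -1.03 (adjusted p = 0.0391) without BG38.

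Markers of other cell types moved with several of these members. Of the 7 markers of stellate cells and fibroblasts, 6 fell in ABpIF/+ vs Ctrl (all genes, 5.35%), among them *Col1a1* (-4.30) and *Col3a1* (-4.32). The 7 summed to between 206 and 272 CPM in Ctrl and between 58.5 and 124 CPM in ABpIF/+. Their sum was 287, 361 and 229 CPM in BG183, BG38 and BG90. By contrast, the paper reports that picrosirius red staining showed more periportal collagen in ABpIF/+ livers and markedly less fibrosis in ABpIF/F livers. Why RNA and staining differ in direction was not tested. Of the 8 macrophage markers, 4 fell in ABpIF/+ vs Ctrl (all genes, 5.35%). The 8 summed to between 317 and 443 CPM in Ctrl and between 131 and 228 CPM in ABpIF/+. Their sum was 264, 586 and 493 CPM in the ABpIF/F mice. *Abca8a*, *Abca9*, *Abcc9*, *Abcg1* and *Abcg3* likewise had lower means in ABpIF/+ than in ABpIF/F livers, and the part of these cells in that difference was not tested. So did other members, among them *Abca2*, *Abca8b* and the canalicular *Abcb11*, while some, such as *Abcb6*, had higher means. Within ABpIF/F, *Abca8a* was lowest in BG38 (109 CPM), the mouse in which both marker sums were highest. Of the 8 cholangiocyte markers, 6 rose in ABpIF/F vs Ctrl (all genes, 4.55%). The 8 summed to between 50.2 and 88.4 CPM in Ctrl and between 55.4 and 177 CPM in ABpIF/+. Their sums were 238, 1200 and 815 CPM in BG183, BG38 and BG90. *Spp1*, which encodes osteopontin, made up 175, 1081 and 724 CPM of those 3 sums and had a mean of 43.8 CPM in Ctrl. The other 7 summed to between 20.2 and 28.4 CPM in Ctrl, between 39.2 and 65.6 CPM in ABpIF/+, and 62.6, 119 and 91.0 CPM in BG183, BG38 and BG90. In ABpIF/+ vs Ctrl, *Sox9* of this list rose and *Krt19* fell. *Abcc1*, *Abcc5*, *Abcc9*, *Abcg1* and *Abcg3* had the same order of the 3 ABpIF/F mice, lowest in BG183 and highest in BG38, and the part of these cells in it was not tested. Other members, among them *Abcb11*, *Abcd3*, *Abcb6* and *Abcb10*, had the reverse order, highest in BG183 and lowest in BG38. The part of age and tumor burden in either order was not tested. The 7 endothelial markers summed to between 163 and 247 CPM in Ctrl, between 78.8 and 182 CPM in ABpIF/+ and 271, 213 and 187 CPM in ABpIF/F. The 6 lymphocyte markers summed to at most 3.94 CPM in Ctrl, 1.81 CPM in ABpIF/+ and 9.94 CPM in ABpIF/F, and the 4 red blood cell markers to at most 150.4, 237 and 112 CPM.

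**Figure D4:**
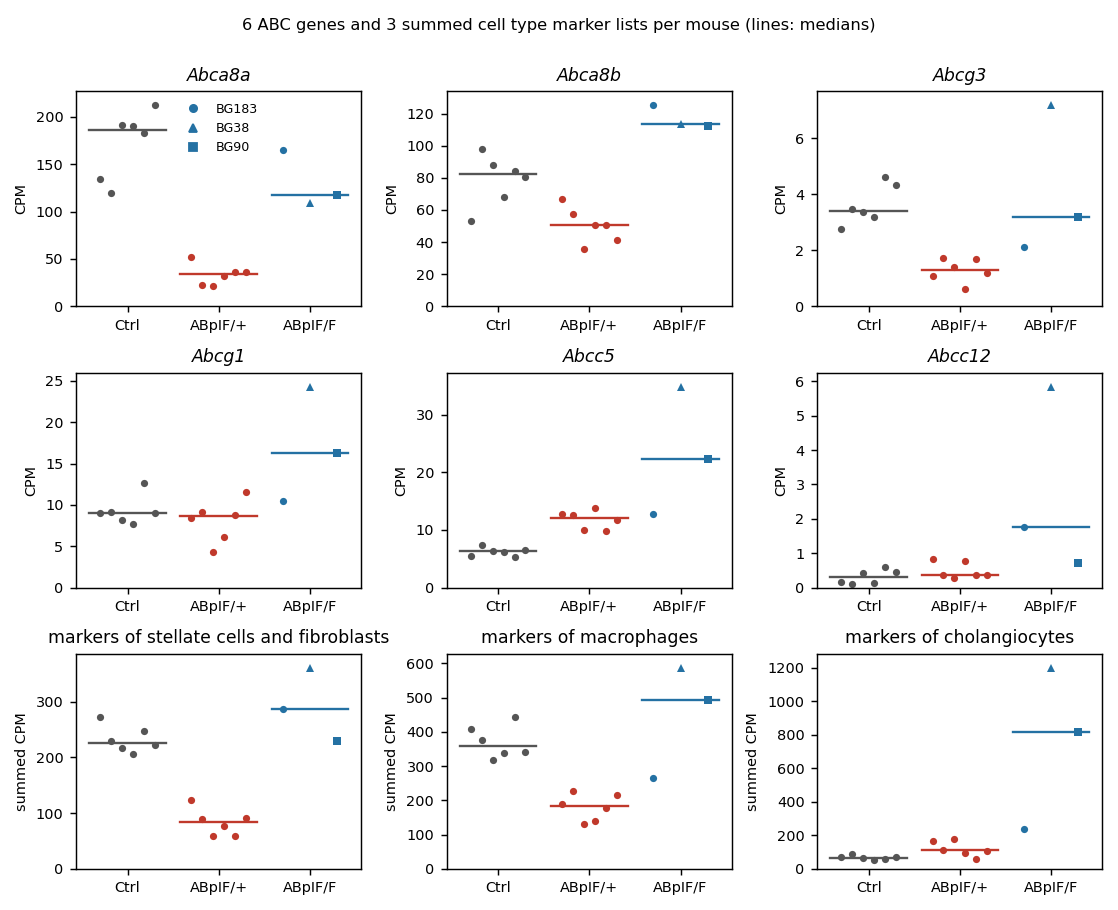
CPM of 6 ABC genes (upper 2 rows) and summed CPM of 3 marker lists (bottom row) in each mouse on linear axes that start at 0, for Ctrl (grey), ABpIF/+ (red) and ABpIF/F (blue), with a line at each median and a circle for BG183, a triangle for BG38 and a square for BG90. BG38 is the highest mouse for *Abcg3*, *Abcg1*, *Abcc5*, *Abcc12* and for all 3 marker sums, and not for *Abca8a* or *Abca8b*.

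Of 3 further ABC proteins whose symbols lie outside the rule, 2 rose in ABpIF/F vs Ctrl (all genes, 4.55%). None was called in ABpIF/+ vs Ctrl (all genes, 10.0%). *Cftr*, a chloride channel of cholangiocytes, had means of 0.189 CPM in Ctrl, 0.0882 CPM in ABpIF/+ and 1.77 CPM in ABpIF/F, with 1.08, 2.94 and 1.29 CPM in BG183, BG38 and BG90. *Tap1*, which carries peptides to MHC class I, was between 25.9 and 33.2 CPM in Ctrl, between 25.8 and 38.6 CPM in ABpIF/+ and at 52.1, 78.0 and 62.0 CPM in the ABpIF/F mice (log2 fold change of ABpIF/F vs Ctrl, 1.12 ± 0.14). Its partner *Tap2* was between 21.4 and 29.0 CPM in Ctrl and at 38.7, 44.0 and 43.1 CPM in ABpIF/F, a difference under 2-fold.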

How the data were processed

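Total RNA of frozen liver was isolated with Trizol, and stranded mRNA libraries were sequenced from both ends. The authors trimmed the reads, aligned them to mm10 (GRCm38) with HISAT2 (version 2.21 per the labels) and counted them per gene with featureCounts 2.0.8. The deposited values are raw counts, and the strand setting and annotation of the counting are not given in the sources used here. The 15 columns hold 1 mouse each, although 23 samples are listed and 8 mice are named by 2 samples. A second deposited table held equal counts in all 271790 cells compared, and 5 of its count columns were not used. The deposited fold changes and p-values of the authors' own comparisons were not used. A column was given to a group where its name matched that of a mouse in the labels.

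The counts were fitted with edgeR 4.0.16 in R 4.3.3 (quasi-likelihood test in the form of earlier versions, TMM, robust dispersions), with all genes kept and the 3 groups in 1 fit. The SE of a log2 fold change is its size divided by the square root of the F statistic. Log2 CPM of the clock score used a prior count of 2. Positions and exon lengths came from GENCODE on GRCm38. Where each library of a group had at most 3 counts, the fold change was computed against 3 counts per library, which covers counting error only. The script was tested on simulated data. Mice are the replicates, and p-values measure the spread between mice.

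The members, gene lists, roles and alternatives were chosen with earlier results of these data known. Called members were named, as were hepatocyte transporters chosen by role whatever their values, and up to 3 called genes of a list. A few genes of these lists are counted but not reported by name here. Alternatives were RLE size factors, DESeq2 1.42.0, edgeR's filterByExpr, the current quasi-likelihood method, no robust estimation, an adjusted p under 0.05, no fold threshold, the compared groups only, leaving out each mouse, the strain label as a term and the clock score as a covariate. Reads and proteins were not analysed here.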

Additional observations from a re-analysis of the deposited data

Results flagged for a closer look

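Of 76 groups of 6 mice (38 members with at least 1 CPM in Ctrl and in ABpIF/+), 5 held 1 mouse whose gap to its nearest neighbour was over 0.625 of the group's range, and chance gives about 1 in 20. *Abca1* was 267 CPM in the ABpIF/+ mouse BG40, and the next highest mouse was at 184 CPM. *Abcc1* was 1.25 CPM in the ABpIF/+ mouse BG31, and the next lowest was at 2.05 CPM. *Abcd4* was 32.1 CPM in the ABpIF/+ mouse BG55, above a next value of 20.4 CPM, and *Abcf1* was 92.3 CPM in the same mouse, above 80.4 CPM. *Abcg1* was 12.7 CPM in the Ctrl mouse malpa459, above 9.08 CPM.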

How the results depend on the processing

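Of 575 values of called members under the alternative settings that could end a call, 531 kept direction and call, 44 kept the direction and lost the call, and 0 reversed. With no fold threshold, 22 members were called in ABpIF/+ vs Ctrl and 12 in ABpIF/+ vs ABpIF/F. With the strain label as a term, 7 were called in ABpIF/+ vs Ctrl, without *Abca14*, *Abca17*, *Abcc4* and *Abcg3*, and 6 in ABpIF/F vs Ctrl, without *Abcb11* and *Abcc12*. With the clock score as a covariate, 5 were called in ABpIF/F vs Ctrl, without *Abca5*, *Abcb10* and *Abcb11*, and 1, *Abca8a*, in ABpIF/+ vs ABpIF/F. The causes of these losses were not tested. Leaving out 1 mouse at a time gave 9 to 11 calls in ABpIF/+ vs Ctrl, 5 to 10 in ABpIF/F vs Ctrl and 4 to 9 in ABpIF/+ vs ABpIF/F. The 5 were found without BG38, which lost *Abca5*, *Abcb11* and *Abcc12*. *Abcb4*, *Abcd3*, *Abcb6* and *Abcc5* kept every call in all 23 such alternatives, as did *Abca2*, *Abca5*, *Abca8a* and *Abcb11* in ABpIF/+ vs Ctrl. No paired analysis was possible because the labels share no replicate numbers between groups. Depth limits the precision of the 11 members with a mean under 1 CPM.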
